A study of Mus musculus with 7 samples.

Results

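The promoters of the genes for cytosolic ribosomal proteins were followed through 7 ATAC-seq libraries of sorted embryonic mouse cells. The members were the protein-coding RefSeq genes of chromosomes 1 to 19 whose symbol is Rpl, Rps or Rplp followed by a number, with or without a final a or x, and they numbered 71 of 20021 protein-coding genes. Of these, 43 code for proteins of the large (60S) subunit and 28 for proteins of the small (40S) subunit. The rule leaves out pseudogenes, the Rps6k kinases, X-linked genes and ribosomal proteins with other symbols, such as Rpsa and Rack1.

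ATAC-seq uses a transposase that cuts open DNA, so that read ends pile up at accessible promoters and enhancers. The cells came from the dissected second heart field region of embryos at E9.5, pooled within a genotype, and the labels name no treatment. The GFP reporter is a knock-in allele of Hoxb1 that the study also writes as Hoxb1-, carried by the Hoxb1-GFP embryos and not by the Tomato line, so that reporter allele and line cannot be told apart; whether the embryos carried 1 or 2 copies is not given in the sources used here. Hoxb1-GFP embryos gave 2 libraries of GFP+ cells (replicates 3 and 4), in which the reporter marks Hoxb1-expressing progenitors of the posterior field, and 2 libraries of GFP- cells (replicates 1 and 2). Mef2c-Cre;Rosa tdT embryos gave 2 libraries of Tomato+ cells (replicates 6 and 8), in which Cre driven by the Mef2c anterior heart field enhancer labels a lineage and not the cells' current state, and 1 library of Tomato- cells (replicate 7). The sort-negative libraries hold whatever other cells the dissected region contained, and pooling hides the spread between embryos.

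Ribosomal proteins assemble with ribosomal RNA in the nucleolus into the 2 subunits, and their genes are among the most highly transcribed of any growing cell. Their mRNAs start at a cytosine followed by a run of pyrimidines, the terminal oligopyrimidine tract, through which mTOR signalling and Larp1 control their translation. Loss of 1 copy of several of these genes gives tissue-restricted defects in mice and Diamond-Blackfan anaemia in people, often through p53.

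Promoter sequence was read from the RefSeq promoter table of GRCm38.p6, which held 51 of the 71 members and, at the TSS used here, 50 of them. The runs below are those of the 4 members with the strongest promoter peaks in that table, of the 3 with the weakest besides Rpl38, and of Rpl38, a gene known for its part in the translation of Hox mRNAs. Each covers 100 bases before and 20 bases from the TSS, 5′ to 3′ on the gene's strand. Capitals mark a match to the ETS core CCGGAAG on either strand. The same runs were searched for the YY1 core AAGATGGC, which none of the 8 held.
Rpl37, chr15:5116513-5116632 (+): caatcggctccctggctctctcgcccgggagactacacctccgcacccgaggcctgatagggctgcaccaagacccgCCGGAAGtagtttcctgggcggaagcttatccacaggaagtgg
Rpl34, chr3:130730318-130730437 (-): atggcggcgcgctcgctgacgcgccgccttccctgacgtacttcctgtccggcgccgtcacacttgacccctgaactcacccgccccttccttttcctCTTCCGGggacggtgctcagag
Rps13, chr7:116334171-116334290 (-): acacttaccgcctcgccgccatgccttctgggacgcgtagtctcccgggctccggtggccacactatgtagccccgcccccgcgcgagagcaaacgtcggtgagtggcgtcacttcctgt
Rpl31, chr1:39367751-39367870 (+): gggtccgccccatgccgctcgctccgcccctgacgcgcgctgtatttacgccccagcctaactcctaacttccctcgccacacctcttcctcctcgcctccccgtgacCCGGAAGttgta
Rpl19, chr11:98026824-98026943 (+): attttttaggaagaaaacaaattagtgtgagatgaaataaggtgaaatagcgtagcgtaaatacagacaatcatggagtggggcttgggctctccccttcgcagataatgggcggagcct
Rps18, chr17:33955646-33955765 (-): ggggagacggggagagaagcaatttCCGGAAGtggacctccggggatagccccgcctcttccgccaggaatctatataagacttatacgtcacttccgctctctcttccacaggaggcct
Rpl18, chr7:45717971-45718090 (+): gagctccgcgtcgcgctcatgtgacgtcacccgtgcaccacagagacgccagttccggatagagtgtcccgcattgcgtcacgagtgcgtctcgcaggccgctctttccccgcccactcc
Rpl38, chr11:114668480-114668599 (+): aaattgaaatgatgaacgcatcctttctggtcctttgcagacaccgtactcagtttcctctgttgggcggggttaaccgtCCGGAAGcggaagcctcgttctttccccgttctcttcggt

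Both strong and weak promoters carried the ETS core in these runs. It began 23 bases before the TSS in Rpl37, the highest member, and 20 bases before it in Rpl38, which stood 68th of 71.

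The libraries held between 187914 and 291287 peaks each after the summits of a peak were joined, from 52340120 tags in Tomato+ replicate 6 to 93074895 in Tomato- replicate 7. The peak caller's run name in the header of the Tomato+ replicate 6 list contains YFP, a reporter its label does not name; the label was followed. Promoter calls of marker genes were shared between the populations. Of 6 posterior markers 5 had a promoter peak of q at most 0.01 in each GFP+ library, against 3 to 5 elsewhere, and Tbx5 had none in either GFP+ library. Of 6 markers of the Mef2c lineage, 4 and 3 were called in the Tomato+ libraries and 3 to 5 elsewhere. Tbx1, the T-box gene of the anterior field, had no such peak in any library. The blood markers Hba-x, Hbb-bh1 and Hbb-y were called in Tomato- replicate 7, Hba-x also in GFP- replicate 1, and none in the other 5 libraries. Gata1 was called in no library. Of the other lists, 1 to 2 of 3 endothelial, 0 to 1 of 2 neural crest, 0 of 2 endodermal and 1 to 2 of 2 neural tube markers were called in a library.

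All 71 ribosomal protein genes had a promoter peak in all 7 libraries, as did 11859 of all 20021 genes. A promoter peak was a deposited peak that overlapped the window from 1000 bp upstream to 100 bp downstream of the TSS. The deposited lists include many weak peaks: in GFP+ replicate 3, 72289 of 291287 peaks had q at most 0.01. At q at most 0.01, 62 members were called in all 7 libraries (87.3%), against 51.8% of all 20021 genes. Library by library, 69 members were called in GFP+ replicate 3 (all genes, 61.1%), 69 in GFP+ replicate 4 (62.2%), 71 in GFP- replicate 1 (59.7%), 67 in GFP- replicate 2 (60.6%), 68 in Tomato+ replicate 6 (60.1%), 70 in Tomato+ replicate 8 (60.8%) and 71 in Tomato- replicate 7 (62.6%). The background includes genes that are silent in most cells. Other housekeeping lists stood near the members: 67 of 78 mitochondrial ribosomal protein genes (85.9%), 32 of 38 proteasome subunits (84.2%), 34 of 38 translation factors (89.5%) and 35 of 39 ribosome assembly factors (89.7%) were called in all 7 libraries. So were 15 of 16 genes (93.8%) of a separate list of regulators such as Mtor, Larp1 and Myc.

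Of the 43 genes of the 60S subunit, 36 were called in all 7 libraries (83.7%), and of the 28 genes of the 40S subunit, 26 (92.9%). The 5 ribosomal protein genes outside the symbol rule (Rpsa and Rack1 among them) were also called in every library. Of the 4 X-linked genes, Rpl10, Rpl36a and Rpl39 were called in all 7 and Rps4x in 6.

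Paralogs of the members differed in their calls. Rpl22l1, Rpl36al and Rps27l were called in all 7 libraries, at fold enrichments of 6.36 to 12.5, 7.34 to 10.9 and 5.86 to 10.3. Rpl7l1 was called in 6 of 7. Rpl3l, the striated muscle counterpart of Rpl3, had no peak in any library, nor did Rpl10l, a gene of the male germline, or Rps27rt. Rpl39l had peaks in 2 libraries, at fold enrichments of 3.01 and 2.44, neither with q at most 0.01.

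In 9 members the call was missing in at least 1 library, and 7 of these are 60S genes. Rpl8 was called in the fewest, 4 of 7: its −log10 q was 1.29 in GFP+ replicate 3, 1.27 in GFP+ replicate 4 and 1.29 in Tomato+ replicate 6. Its fold enrichment was between 2.37 and 3.63. Rpl18 missed in GFP+ replicate 4, Rpl35a in GFP+ replicate 3 and Rps15a in Tomato+ replicate 6. Rpl6, Rpl23a, Rpl32 and Rpl41 missed in GFP- replicate 2, where Rpl41, which codes for a very short peptide, had the lowest fold enrichment of any member, 1.93.

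In strength the members stood level with or below the middle of all genes with a promoter peak, depending on the library, and below the middle of the called ones. Fold enrichment is the caller's ratio of the pileup at the summit to the local background, and its median over the 71 members ran from 4.45 in Tomato+ replicate 6 to 5.75 in Tomato+ replicate 8. The median over all promoters with a peak in a library ran from 5.2 to 5.71, and over those called from 5.59 to 6.2. In Tomato+ replicate 8 (5.75 against 5.71) and Tomato- replicate 7 (5.69 against 5.71) the members were level with all promoters with a peak. They were lower in GFP+ replicates 3 (5.27 against 5.66) and 4 (5.22 against 5.6). They were also lower in GFP- replicates 1 (4.5 against 5.2) and 2 (4.89 against 5.43) and in Tomato+ replicate 6 (4.45 against 5.22). For each library all 20021 genes were then put in order of the fold enrichment of their promoter peak, the gene in place 1 having the highest. The median member stood in place 8021 (its median over the 7 libraries). The median gene with a peak in at least 1 library stood in place 8146 and the median gene called in all 7 libraries in place 5273. Genes without a peak in a library were tied last there, which lowers the standing behind the 8146, while every member had a peak in all 7. Of the 71 members, 15 stood in places 1 to 5005, 42 in places down to 10010 and 14 lower, and 18 stood above the median of the genes called in all 7 libraries. 

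The lists of other housekeeping genes and of regulators stood higher. The median place was 7116 for mitochondrial ribosomal proteins, 5476 for proteasome subunits, 4916 for translation factors, 5522 for ribosome assembly factors and 5520 for the regulators. The 43 genes of the 60S subunit had a median place of 8021 and the 28 genes of the 40S subunit one of 7606. Against all peaks of a library, promoters and others, 8.45% of the list ranked at or above the median member, 8.77% at or above the median gene with a peak in at least 1 library, and 5.25% at or above the median gene called in all 7 libraries. These are descriptions of the lists and were not tested.

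**Figure D1:**
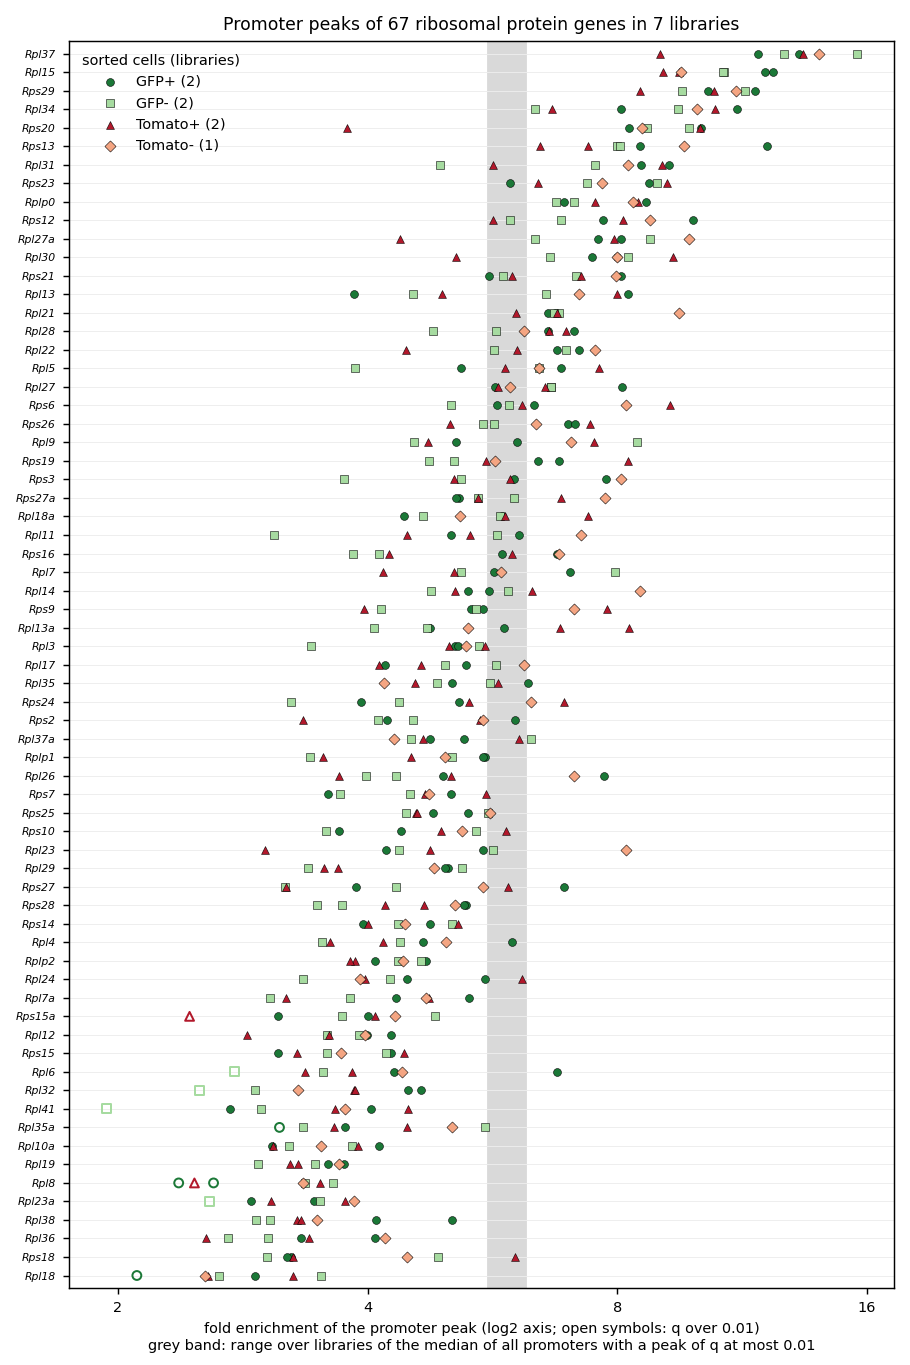
Fold enrichment of the promoter peak (log2 horizontal axis) of 67 ribosomal protein genes (rows, in order of median place) in each of the 7 libraries, with symbols for the sorted cells and open symbols where q exceeded 0.01. Most symbols lie left of the grey band, the range over libraries of the median of all called promoters (5.59 to 6.2), and Rpl37 at the top spans 9.02 to 15.6.

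The members spanned a wide range. Rpl37, a zinc finger protein of the 60S subunit, led in median place (230). Fold enrichment reached 13.3 (replicate 3) and 11.8 (replicate 4) among the GFP+ libraries, 12.7 (replicate 1) and 15.6 (replicate 2) among the GFP- libraries, 9.02 (replicate 6) and 13.4 (replicate 8) among the Tomato+ libraries, and 14 in the Tomato- library. Rpl15 followed (place 743), with GFP+ libraries at 12.3 and 12, GFP- libraries at 10.8 and 10.7, Tomato+ libraries at 9.49 and 9.08 and the Tomato- library at 9.55 (each pair in order of replicate number, as in all such pairs that follow). In fold enrichment its GFP+ libraries were the highest and its Tomato+ libraries the lowest of the 7, while in place Tomato+ replicate 6 (743) stood above GFP- replicate 2 (847) and the Tomato- library (1885). Rps29 (place 1151) and Rpl34 (1584) had fold enrichments of 8.51 to 11.7 and 6.36 to 11.2. In Rpl37, Rpl15 and Rps29 every library lay above the median of all called promoters by more than 2 units of fold enrichment.

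At the other end, Rpl18 stood last (place 12847). The GFP+ libraries gave fold enrichments of 2.93 and 2.11, the GFP- libraries 3.52 and 2.65, the Tomato+ libraries 2.57 and 3.25, and the Tomato- library 2.55. Rps18 (place 11502) was between 3.02 and 6.02, Rpl36 (11482) between 2.56 and 4.19, Rpl38 (11385) between 2.93 and 5.05 and Rpl23a (11253) between 2.58 and 3.85. None of the 7 libraries of Rpl37 came near any library of Rpl18, the lowest being 9.02 against a highest of 3.52. The order of the members was largely kept between libraries, with Spearman's rho of fold enrichment over the 71 genes from 0.643 (GFP- replicate 2 and Tomato+ replicate 6) to 0.808 (GFP+ replicate 4 and Tomato- replicate 7) in the 21 pairs. The points of a pair share gene and sequence. Between the 2 replicates of a population rho was 0.741 within GFP+, 0.685 within GFP- and 0.767 within Tomato+.

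Members with known mouse phenotypes lay along the whole range. Rplp0, a protein of the ribosomal stalk and a common reference gene, was steady, from 6.75 to 8.67, with a median place of 3117. Rpl27a, mutated in the sooty foot ataxia mouse, had a median place of 3584 and was 4.37 in Tomato+ replicate 6 against 6.36 to 9.77 in the others. Rpl5 (place 5427) and Rpl11 (6601), which bind Mdm2 with the 5S RNA and so stabilise p53, ranged from 3.86 to 7.61 and from 3.09 to 7.24. Rps6 (place 5806), the substrate of the S6 kinases, ranged from 5.04 to 9.26, and Rps19 (6105), the gene most often mutated in Diamond-Blackfan anaemia, from 4.75 to 8.24. Rps7 (8335) and Rpl24 (9485), the gene of the belly spot and tail mouse, were at 3.59 to 5.56 and 3.35 to 6.14. 

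Rps20, altered in a dark skin mouse, had 1 library far below the others. The GFP+ libraries stood at 8.27 and 10.1, the GFP- libraries at 9.76 and 8.68, the Tomato- library at 8.57 and Tomato+ replicate 8 at 10.1, but Tomato+ replicate 6 at 3.78, which put it in place 10248 there and in places 1030 to 3035 elsewhere. Tomato+ replicate 6, the library with the fewest tags, was also the one in which most members, 20 of 71, had their lowest place. GFP- replicate 2 followed with 18, and Tomato- replicate 7, the deepest, had 2. The part of depth in these values was not tested.

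The median width of the members' peaks was 531 bp. It was 529 bp over the 16418 genes with a peak in at least 1 library and 695 bp over the genes called in all 7 libraries, against 512 bp for mitochondrial ribosomal proteins, 566 bp for proteasome subunits and 720 bp for translation factors. In each library the median of the members (485 to 667 bp) was below that of the called promoters of the same library (607 to 722 bp). Both were widest in Tomato- replicate 7.

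Rpl36 was the narrowest, with GFP+ widths of 108 and 165 bp, GFP- widths of 242 and 132 bp, Tomato+ widths of 109 and 281 bp and a Tomato- width of 309 bp (median 165 bp). Rpl41 and Rps15 came next with medians of 249 and 261 bp. The widest were Rpl7 (median 1420 bp), Rps25 (1010 bp) and Rps29 (925 bp), and of these Rpl7 and Rps25 share their peak with a neighbouring gene.

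**Figure D2:**
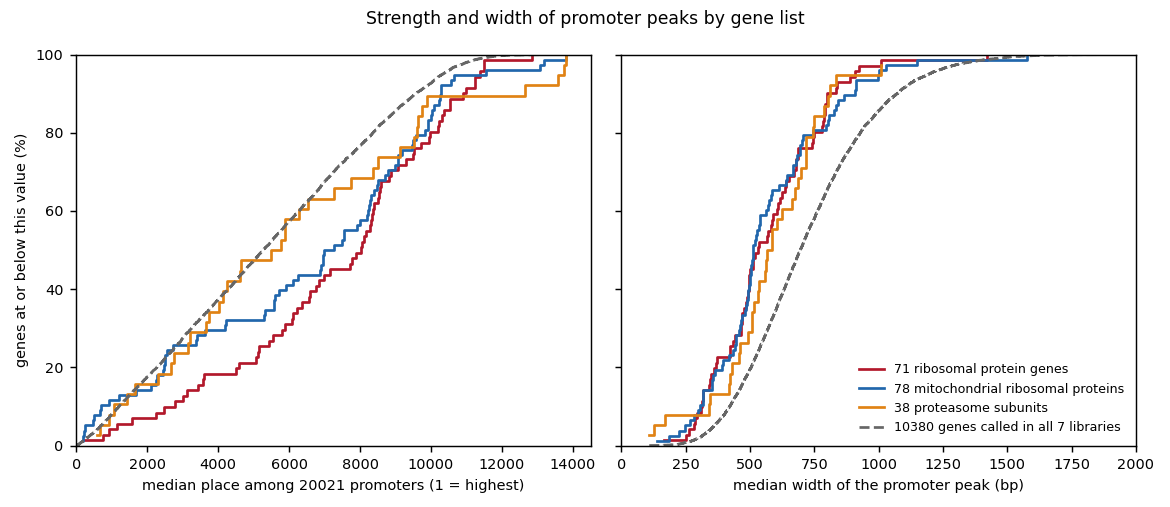
Cumulative share of genes (vertical axis, %) by median place among 20021 promoters (left) and by median width of the promoter peak in bp (right), for the 71 ribosomal protein genes, 78 mitochondrial ribosomal protein genes, 38 proteasome subunits and the 10380 genes called in all 7 libraries. The ribosomal protein curve lies to the right of the dashed curve in place (median 8021 against 5273) and to its left in width (531 against 695 bp).

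Summits lay just upstream of the TSS. The median offset was −44 bp over the members and −38 bp over the genes called in all 7 libraries. The median summit lay upstream of the TSS in 51 of 71 members and within 100 bp of it in 46, and in 43 members all 7 summits lay within 200 bp. Only in 9 members did the 7 summits fall within 50 bp of each other. 

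The median summit was more than 200 bp from the TSS in 7 members. In 3 of these it sat nearer to another gene. The median Rpl7 summit was at −1343 bp, 106 bp from the TSS of Rdh10, which runs in the opposite direction. Rdh10 codes for a retinol dehydrogenase of retinoic acid synthesis. Over the 7 libraries the Rpl7 summits ran from −1397 to −870 bp. Where the summit lay outside the Rpl7 window, the peak overlapped that window only through its width. The peak closest to the Rpl7 TSS itself had a median summit at −36 bp and was called in 6 of 7 libraries. The Rps25 summit was 121 bp from the TSS of Trappc4 and the Rpl4 summit 106 bp from that of Zwilch, both divergent. The peak closest to the Rpl4 TSS itself had a median summit at 45 bp and was called in 5 of 7 libraries.

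The other 4 had no nearer gene. The Rps26 peak with the largest −log10 p kept to 1 position. Its GFP+ summits lay at −341 and −332 bp and its GFP- summits at −333 and −332 bp. Its Tomato+ summits lay at −340 and −331 bp and its Tomato- summit at −344 bp. The peak closest to the Rps26 TSS had a median summit at −29 bp (−333 to 149 bp) and was called in all 7 libraries. Rps19 had a median of −579 bp and was the widest 40S peak after Rps25 and Rps29, with a median width of 906 bp and 3 curated TSSs. Rpl13a, whose protein takes part in translational silencing when phosphorylated, had a median of −294 bp, and its summit was between −294 and −339 bp in GFP+ and Tomato+ cells and between −117 and −153 bp in GFP- and Tomato- cells. Rpl13a was picked after its summits were seen, and how many members split this way was not counted. Rps23 had a median of −254 bp, and its summit was at 1 bp in Tomato+ replicate 6 and between −248 and −259 bp in the other libraries.

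In 12 members another coding gene starts within 1000 bp, always on the opposite strand, and in 11 of these upstream. The closest was Ndufa7, 10 bp upstream of Rps28. ATAC-seq does not tell the partners of such a promoter apart. Such promoters stood at both ends of the order: Rpl15 (shared with Nkiras1, 155 bp upstream) stood second and Rpl18 (shared with Sphk2, 69 bp upstream) last.

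**Figure D3:**
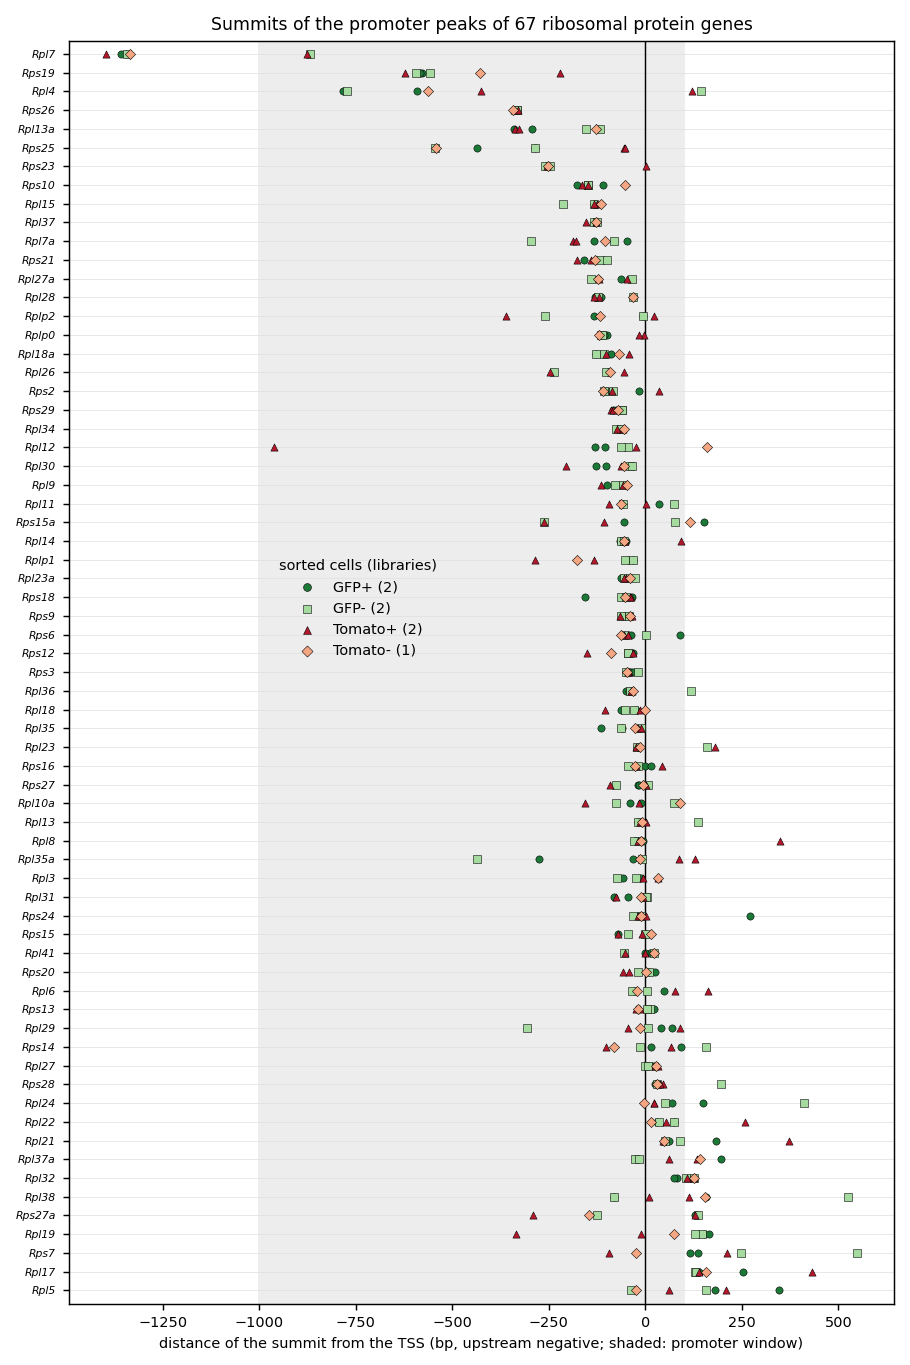
Distance of the promoter peak's summit from the TSS (horizontal axis, bp, upstream negative) for 67 members (rows, in order of the median) in the 7 libraries, with the promoter window shaded. Rps26 forms a tight column from −344 to −331 bp, and the Rpl7 symbols run from −1397 to −870 bp, with a median (−1343 bp) left of the window.

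Of the motifs counted, 2 had the largest differences in share between the members and all genes, a description that was not tested. The ETS core CCGGAAG, searched on both strands from 250 bases before to 50 bases after the TSS, occurred in 19 of 50 members (38%), against 12.8% of the 15668 coding genes in the table and 20.7% of the 8242 of them called in all 7 libraries. The 22 matches began between positions −214 and 35 from the TSS, 15 of them between 100 bases before and 20 after it. A cytosine that starts at least 6 pyrimidines in a row within 10 bases of the TSS occurred in 27 of 50 (54%), against 19.8% and 19%. This resembles a terminal oligopyrimidine tract, but the cytosine could lie inside a longer run and need not be the first transcribed base. The first annotated base was a cytosine in 34% of members and 13.9% of all genes.

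Other motifs differed less or in the other direction. The YY1 core AAGATGGC was in 4 members (8%, against 3.31% of all genes and 4.99% of genes called in all 7 libraries), the GC box GGGCGG in 29 (58%, against 48.9% and 73.4%), the CCAAT box CCAAT in 15 (30%, against 39% and 40.3%), the E-box CACGTG in 5 (10%, against 8.2% and 10.7%) and the NRF1 core GCATGCGC in 2 (4%, against 3.81% and 6.28%). The letters TATAAA stood between 40 and 15 bases before the TSS in 0 of 50 members, against 2.98% of all genes and 0.837% of those called everywhere; anywhere in the 300 bases they were in 3 members (6%, against 13.4% and 5.48%). In no member did matches of 2 of these motifs overlap. The ratio of observed to expected CpG was 0.89 (median), against 0.614 and 0.812, at a GC content of 57.7%, against 57% and 63%.

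Members with and without these motifs overlapped in place. The 19 with the ETS core had a median place of 8114, from 230 (Rpl37) to 11502 (Rps18), and the 31 without it a median of 7725. The 27 with a pyrimidine run near the TSS had a median place of 8068 and the 23 without one 6772. A match is a run of letters and not a bound site.

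The question of the study, how the GFP+ posterior and the Tomato+ anterior progenitors differ, was put to these promoters by asking in how many members every library of one group stood above every library of the other in place. The comparison was made in place because the lists differ in length. With 2 libraries against 2 the smallest two-sided p of an exact permutation test is 0.333, and with 4 against 3 it is 0.0571, so the counts are set beside those of all genes and no member was tested. Replicate numbers are those of sequencing adapters, and the spread between 2 libraries may be technical.

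Both GFP+ libraries stood above both Tomato+ libraries in 15 members (21.1%), against 14.9% of the 16418 genes with a peak in any library and 17.8% of the 11859 genes with a peak in all 7, as every member has. The reverse held in 10 members (14.1%), against 23.6% and 17.2%. Set beside genes with peaks in all 7 libraries, both shares were near the background. Without Tomato+ replicate 6 the counts were 21 and 26, and without Tomato+ replicate 8 they were 37 and 15. Such counts rise by construction when a group has fewer libraries, and the matching shares of all genes were not computed.

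Rpl29, a 60S protein that also binds heparin, was at 4.99 and 4.95 in GFP+ against 3.55 and 3.68 in Tomato+ libraries, and Rplp1, of the acidic stalk, at 5.53 and 5.52 against 3.54 and 4.51. At Rpl29 the 2 GFP- libraries (3.39 and 5.19) spanned both populations.

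In the other direction Rpl13a led. The Tomato+ libraries gave fold enrichments of 8.27 and 6.83, the GFP+ libraries 5.84 and 4.75, the GFP- libraries 4.07 and 4.71, and the Tomato- library 5.28, the Tomato+ libraries being the highest 2 of the 7. Rps27a, which codes for a fusion of ubiquitin with the 40S protein, was at 5.43 and 6.84 against 5.16 and 5.11, and Rps24 at 5.3 and 6.9 against 5.15 and 3.93. At Rps27a both GFP- libraries (6.01 and 5.43) and the Tomato- library (7.73) were above the GFP+ libraries as well. Of the members named for their phenotypes, Rps6 and Rps7 also stood higher in both Tomato+ libraries.

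Rpl38 stood higher in GFP+ cells than in all others. Its loss in the tail short mouse alters the axial skeleton, with less translation of a set of Hox mRNAs. The GFP+ libraries gave fold enrichments of 5.05 and 4.09, the GFP- libraries 3.05 and 2.93, the Tomato+ libraries 3.29 and 3.32, and the Tomato- library 3.47, and its places were 8305 and 10007 in GFP+ cells and 10969 to 12148 in the other 5 libraries. The groups did not overlap, but even its GFP+ peaks were below the median of all called promoters (5.59 to 6.2). Rpl15, Rpl32, Rplp1 and Rps28 also had both GFP+ libraries above the other 5, a comparison added after the values were seen, which makes 5 members (7.04%) against 4.46% of genes with a peak in any library and 5.03% of those with a peak in all 7. Ranked by −log10 p the share was 4.23%, against 5.42% of genes with a peak in all 7, and by pileup 2.82%, against 5.75%. The reverse held for Rps18 and Rps27a (2.82%, against 12.9%).

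Against the GFP- cells of the same line, both GFP+ libraries stood higher in 19 members (26.8%), against 14.5% of genes with a peak in any library and 17.0% of those with a peak in all 7. Both GFP- libraries stood higher in 8 (11.3%), against 24.3% and 18.0%. Ranked by −log10 p, GFP+ stood higher in 18 members (25.4%, against 17.7% of genes with a peak in all 7). GFP- then stood higher in 9 (12.7%, against 18.1%). By pileup the first count was 15 (21.1%, against 18%), with 13 of the 19 kept, and the second 8 (11.3%, against 18.4%). The widest gaps were at Rpl32 (4.64 and 4.47 against 2.93 and 2.51), Rps16 (5.81 and 6.76 against 4.13 and 3.84) and Rps19 (6.8 and 6.42 against 4.75 and 5.08), and in the reverse direction at Rpl8 (2.61 and 2.37 in GFP+, 3.36 and 3.63 in GFP- cells). This comparison shares its GFP+ libraries with the one above. Without GFP- replicate 1 the counts were 33 and 22, and without GFP- replicate 2 they were 28 and 22. Without GFP+ replicate 3 they were 25 and 20, and without GFP+ replicate 4 they were 29 and 17. These counts too rise by construction, and no share of all genes was computed for them.

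All 4 sort-positive libraries stood above all 3 sort-negative ones in 3 members, Rpl28, Rpl32 and Rps19 (4.23%, against 2.05% and 2.45%), and the reverse held in 3 members, Rpl17, Rpl21 and Rpl37 (4.23%, against 2.82% and 2.99%). Ranked by −log10 p these members kept their separation. By pileup only Rpl32 and, in the reverse direction, only Rpl37 kept it. For Rpl28 the GFP+ libraries were at 7.09 and 6.6 and the Tomato+ libraries at 6.63 and 6.94, against 4.8 and 5.71 for the GFP- libraries and 6.17 for the Tomato- library. Rps19 was at 6.8, 6.42, 5.56 and 8.24 in the same order of sort-positive libraries, against 4.75, 5.08 and 5.69, so that in plain fold enrichment Tomato+ replicate 6 (5.56) fell below the Tomato- library. Rpl17 was at 5.25, 4.19, 4.13 and 4.64, against 4.96, 5.72 and 6.17, and in fold enrichment its GFP+ replicate 3 was within the sort-negative range. The globin markers named above were called in 2 of the 3 sort-negative libraries and in none of the sort-positive ones, and their part in these differences was not tested.

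**Figure D4:**
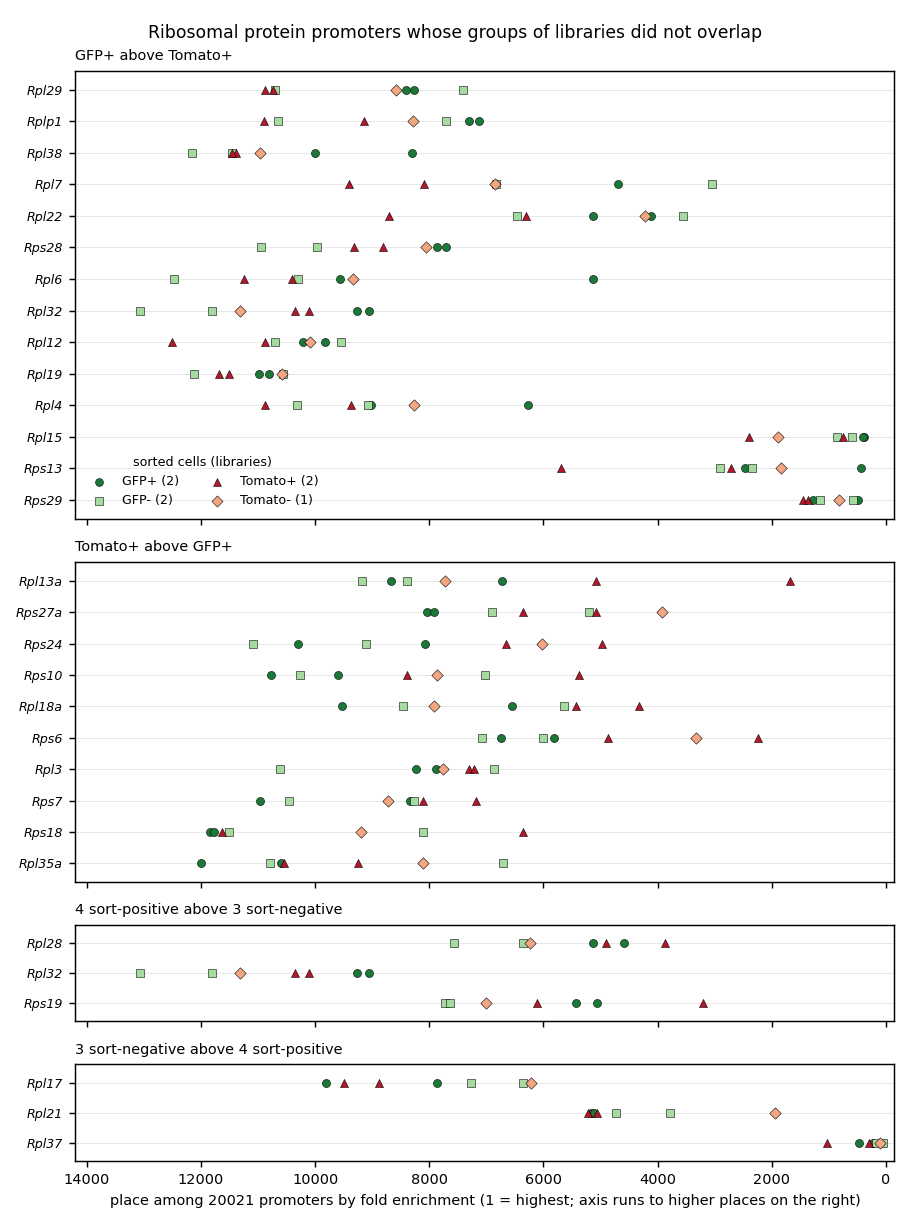
Place among 20021 promoters by fold enrichment (horizontal axis, higher places to the right) in each of the 7 libraries, for members whose GFP+ and Tomato+ libraries did not overlap (upper panels, 14 and 10 genes) and whose 4 sort-positive and 3 sort-negative libraries did not overlap (lower panels, 3 genes each). Genes are in order of the gap, and at Rpl13a the Tomato+ symbols lie apart from the other 5.

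Part of the windows cannot be read uniquely, since ribosomal protein genes have many processed pseudogenes. In 5 members (Rpl5, Rpl24, Rpl29 and Rpl37a among them) the 31-mers around the summit had a median of 2 copies in the genome in at least 1 library, in 9 of 497 peaks. None of the lowest or highest 5 members was among them. Of the members, 26 have annotated snoRNA genes on the same strand between their start and end, 52 in all.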

How the data were processed

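The ATAC-seq peak lists of 7 libraries were analysed, 1 list per library, with no pooling of replicates. Alignment by the authors was with SNAP to GRCm38 (mm10). They removed duplicates and blacklisted regions and called narrow peaks; per the labels MACS2 2.1.1 was used, while the file header of Tomato+ replicate 6 names 2.1.0, no control, a p limit of 0.01, a shift of 37 bp and an extension of 73 bp. With such a shift the signal lies beside the cut site, which can move summits. The deposited pileup is a coverage signal, not scaled to depth. The deposited fold enrichment is a ratio of pileup to local background. The −log10 p-value and the −log10 q-value, both deposited, grow with depth. Peaks with several summits were joined, keeping the summit with the smallest p, and the promoter peak is the one with the largest −log10 p that overlaps the window by at least 1 bp.

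Each gene's TSS is that of most curated (NM_) transcripts in the RefSeq annotation of GRCm38.p6. Tags per library were computed from the smallest background in each list, and for Tomato+ replicate 6 matched the header's 52340220 to 3 digits. Groups are those of the labels. The lists hold no read counts over shared regions, so no model was fitted and no test run. Precision is limited by 2 libraries per group, and by 1 for Tomato- cells. Members, lists and settings were chosen with earlier results of these data known. Named are the 5 highest and lowest members, those without a call, the 3 widest and narrowest, the 3 with the largest gaps in each comparison, and 10 genes with known phenotypes or uses; Rps23, Rps26, Rpl13a, Rpl4 and Rpl7 were also named after their summits were seen. Some genes are counted but not reported here by name. Copies of 31-mers were counted within 50 bp of the summit. Peak assignment and group separation were first tested on simulated data. Alternatives were all curated TSSs, 500 bp on either side, other rankings, q limits, and leaving out each library. Python 3.11.15, numpy 2.4.6, pandas 2.3.3 and numba 0.67.0 were used.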

Additional observations from a re-analysis of the deposited data

Results flagged for a closer look

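In 11 members the sort-positive libraries stood above the sort-negative ones in the Hoxb1-GFP embryos and below the Tomato- library in the Mef2c-Cre;Rosa tdT embryos, every library moving that way. The difference between the lines was not tested, the Tomato side rests on 1 sort-negative library, the deepest of the 7, and the same held, in either direction, for 10.3% of genes with a peak in all 7 libraries, against 15.5% of members. In the 9 listed here the mean place of GFP- minus GFP+ cells was 4037 for Rpl6, 3804 for Rps16, 3648 for Rps3, 3244 for Rpl26, 2672 for Rps28, 2648 for Rpl38, 2334 for Rps12, 2044 for Rpl4 and 1956 for Rplp1, a positive value meaning a stronger peak in GFP+ cells. The matching value of Tomato- minus Tomato+ cells was between −4556 (Rpl26) and −453 (Rpl38).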

How the results depend on the processing

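Of 125 alternative values of the 10 main counts and medians, 95 stayed within the spread between libraries or within 1.5 times the count. The other 30 moved further. Counts, widths and list positions cannot change sign, so a reversal could show only in the median offset, which stayed negative. By pileup the median list position was 5.98%, and among the 60000 peaks with the largest −log10 p it was 29.4%, because that list is shorter. From the peak nearest to the TSS the median offset was −36 bp. Ranked by percent of the whole list, whose length differs between libraries, GFP+ stood above Tomato+ in 28 members and below in 1. GFP- stood above GFP+ in 1, and sort-negative above sort-positive in 0. Shares of all genes were not computed for this ranking. Ranked by −log10 p, Tomato+ stood above GFP+ in 16 members (22.5%, against 17.9% of genes with a peak in all 7 libraries). Sort-negative stood above sort-positive in 6 (8.45%, against 3.04%). By pileup, Tomato+ stood above GFP+ in 16 (22.5%, against 18.4%) and sort-positive above sort-negative in 1 (1.41%, against 2.44%). So the excess of GFP+ over Tomato+ in the counts, 15 to 10 by fold enrichment, was 15 to 16 by −log10 p and 12 to 16 by pileup. GFP+ above Tomato+ was 21.1% of members against 18% of genes by −log10 p, and 16.9% against 18.6% by pileup. The cause was not tested. The 5 members with both GFP+ libraries above the other 5 were 3 by −log10 p (Rpl32, Rpl38, Rplp1) and 2 by pileup (Rpl38, Rplp1).

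Without 1 library a group of 2 has fewer values to separate, and counts rise by construction: 21 to 37 for GFP+ above Tomato+ (37 without Tomato+ replicate 8), 15 to 26 for the reverse (26 without Tomato+ replicate 6), 25 to 33 for GFP+ above GFP-, 17 to 22 for the reverse, 3 to 6 for sort-positive above sort-negative and 3 to 8 for the reverse. No share of all genes was computed for these separations. The counts called in all libraries (62 to 66), widths (520 to 550 bp), offsets (−44.5 to −38.5 bp) and list positions (7.85 to 9.1%) kept within the spread. The 12 genes named in the comparisons were chosen because their groups did not overlap in place. Leaving out a library could therefore not reverse their difference in mean place. Among all 125 alternatives, which include those without a library, none reversed it. The separation itself was not always kept: by pileup the groups overlapped in place at Rpl28, Rps19, Rpl17 and Rpl21. At q at most 0.0001, 43 of 71 members were called in all 7 libraries. The share of all genes was not computed at that limit. No paired analysis was made, because the labels do not say which libraries came from the same pool of embryos. The 12 missing calls fell in libraries of 52340120 to 76766044 tags, with none in GFP- replicate 1 (76155637 tags) or in the deepest, Tomato- replicate 7.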
